A study of Mus musculus with 44 samples.

Results

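6 genes of the lysosome, Lyz2, Ctss, Lgmn, Grn, Laptm5 and Cd63, were followed cell by cell in single-cell RNA sequencing of mouse cells sorted as bone-surface macrophages. They were taken by name from a deposited table, and all 6 were found among its 3613 genes. The cells were sorted as CD45+F4/80+CD41-, the gate that the study uses for osteomacs, which are macrophages resident on bone. They came from neonatal calvarial cells of C57BL/6J mice that had been cultured for 16 h. The first group, 20 cells from plate 7, came from cultures to which 50000 megakaryocytes were added and is called MK-exposed. The second group, 24 cells from plate 3, came from cultures without megakaryocytes and is called MK-free. All cells of a treatment sat on 1 plate, so that plate and treatment cannot be told apart. The labels name neither culture nor animal, and each group therefore counts as 1 sample. The cell titles of the MK-free group also name megakaryocytes, against the treatment field, which was followed here. No test between the groups was made and no p-value is given.

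Lysosomes are acidic compartments that break down material taken up by phagocytosis or delivered by autophagy, and macrophages carry many of them. Their enzymes are hydrolases that work at acid pH, and their membrane proteins keep the compartment sealed, acidify it and sort cargo to it. Every nucleated mammalian cell needs lysosomes, whereas lysozyme and cathepsin S are known mostly from myeloid and other antigen-presenting cells. Lyz2 encodes lysozyme M, which cuts the cell wall of bacteria and is a common marker of myeloid cells. Ctss encodes cathepsin S, a cysteine protease that trims the invariant chain of MHC class II molecules. Lgmn encodes legumain, an asparaginyl endopeptidase that also processes cathepsins. Grn encodes progranulin, a secreted and lysosomal glycoprotein that is cut into granulins. Laptm5 encodes a membrane protein of lysosomes found mainly in blood cells. Cd63 encodes a tetraspanin of late endosomes, lysosomes and exosomes that many cell types share.

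The genes lie apart on the mouse genome except for Lyz2 and Cd63, which are both on chromosome 10. In mm10 with GENCODE M21, all 6 are protein-coding. Lyz2 spans chr10:117277331-117282321 on the minus strand and Cd63 chr10:128900989-128912822 on the plus strand. Ctss spans chr3:95526786-95556403 (plus), Lgmn chr12:102394084-102439813 (minus), Grn chr11:102430315-102437048 (plus) and Laptm5 chr4:130913125-130936141 (plus).

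Lyz2 and Ctss had the largest ratios between the groups, and Cd63 was less than 2-fold apart by pooled level. Bases before their RefSeq start sites are therefore shown (RefSeq, GRCm38.p6), 5′ to 3′ on the gene's own strand. The Lyz2 stretch is chr10:117282322-117282522 on the minus strand, the Ctss stretch chr3:95526536-95526785 on the plus strand, and the Cd63 stretch chr10:128909095-128909344 on the plus strand. Bases in annotated exons were cut, so the Lyz2 stretch ends at base -50 from its start site. Those of Ctss and Cd63 reach base -1. Capitals mark GAGGAA, one sequence recognised by the myeloid factor PU.1, and TATAAA, on either strand. TTCCTC and TTTATA are thus the same motifs read from the other strand.
Lyz2: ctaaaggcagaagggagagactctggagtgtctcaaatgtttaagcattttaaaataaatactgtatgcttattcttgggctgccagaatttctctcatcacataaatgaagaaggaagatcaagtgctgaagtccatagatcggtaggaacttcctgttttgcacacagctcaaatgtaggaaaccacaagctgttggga
Ctss: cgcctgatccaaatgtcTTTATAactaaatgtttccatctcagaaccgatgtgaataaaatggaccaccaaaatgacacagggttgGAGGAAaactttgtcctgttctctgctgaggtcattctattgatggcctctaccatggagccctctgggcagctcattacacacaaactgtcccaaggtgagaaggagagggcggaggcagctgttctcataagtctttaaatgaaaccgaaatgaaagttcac
Cd63: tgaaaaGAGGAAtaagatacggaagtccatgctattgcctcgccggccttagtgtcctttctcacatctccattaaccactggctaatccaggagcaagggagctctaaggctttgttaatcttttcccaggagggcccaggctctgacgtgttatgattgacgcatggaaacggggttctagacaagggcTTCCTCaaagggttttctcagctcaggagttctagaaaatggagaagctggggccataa
4 motifs were searched on both strands of windows of 300 bases, and no overlap between them was found in the members. GAGGAA was found in 4 of the 6 genes (Ctss, Grn, Laptm5 and Cd63), and 28.3% of 32851 mouse promoter windows hold it. TATAAA was found in 3 of 6 (Ctss, Lgmn and Laptm5), against 13.6% of all windows. CACGTG, the core of the element shared by many lysosomal genes, was found in Lgmn, against 7.15% of all windows. TGACTCA, an AP-1 site, was found in none of the 6, against 5.20% of all windows. The Lyz2 window holds none of the 4 in these exact letters, and shorter or variant forms of the motifs were not searched. A match is a description of these letters and not a binding site. The Lyz2 stretch has 1 CpG dinucleotide in its 201 bases, the Ctss stretch 4 in 250 bases and the Cd63 stretch 6 in 250 bases.

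The markers of the sorted cells must be read before the genes. The MK-exposed libraries held a median of 834834 reads (69181 to 1212604), and the MK-free libraries 527930 (270537 to 714465). 15 of 18 macrophage markers fixed for this comparison were listed. Their summed level had a median of 9148 CPM (recovered reads × 1e+06 / library reads) in MK-exposed cells (1159 to 19704), against 6.98 CPM in MK-free cells (0 to 326). Fcgr1, C1qb, C1qc, Aif1 and Spi1 were at 0 in all 24 MK-free cells, and Adgre1, which encodes F4/80, had 1 read there. 5 of 16 markers of osteoblasts and fibroblasts were listed, and their sum had a median of 7.03 CPM in MK-exposed cells (3.88 to 154) and 6286 CPM in MK-free cells (924 to 89671). The MK-free libraries thus go against their macrophage label. Culture and plate cannot be told apart here, and every difference between the groups given here moves with these markers, whose part in it was not tested. Pf4, the only megakaryocyte or platelet gene listed of 11, had 26490 reads in MK-exposed cells and 6 in MK-free cells. Of 10 neutrophil markers S100a8 and S100a9 were listed, with 2094 and 14 reads in MK-exposed cells, against 22 and 5 in MK-free cells. Their part in the level of Lyz2, which neutrophils also make, was not tested. Tnfrsf11a, the only osteoclast marker listed of 9, had 3453 reads in MK-exposed cells and none in MK-free cells.

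5 of the 6 genes were at least 2-fold higher in MK-exposed cells by pooled CPM, with the mean of log2(CPM + 1) differing the same way, and Cd63 met neither rule. Over the 3271 genes detected in 10 or more of the 44 cells, 21.5% were at least 2-fold higher and 28.2% at least 2-fold lower. For Ctss and Laptm5 every MK-exposed cell lay above every MK-free cell, which held for 0.489% of all genes, and 0.214% had every MK-exposed cell below. All 6 genes together took a median of 1.59% of the library reads in MK-exposed cells and 0.0913% in MK-free cells. At a limit of 10 CPM, 16 of 20 MK-exposed cells held all 6 genes and the other 4 held 5. At the same limit, 11 of 24 MK-free cells held 1 of the genes, 12 held 2 and 1 held 3. Intervals below are exact 95% intervals, cover counting error only and treat reads as independent although they carry no molecular identifiers.

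**Figure D1:**
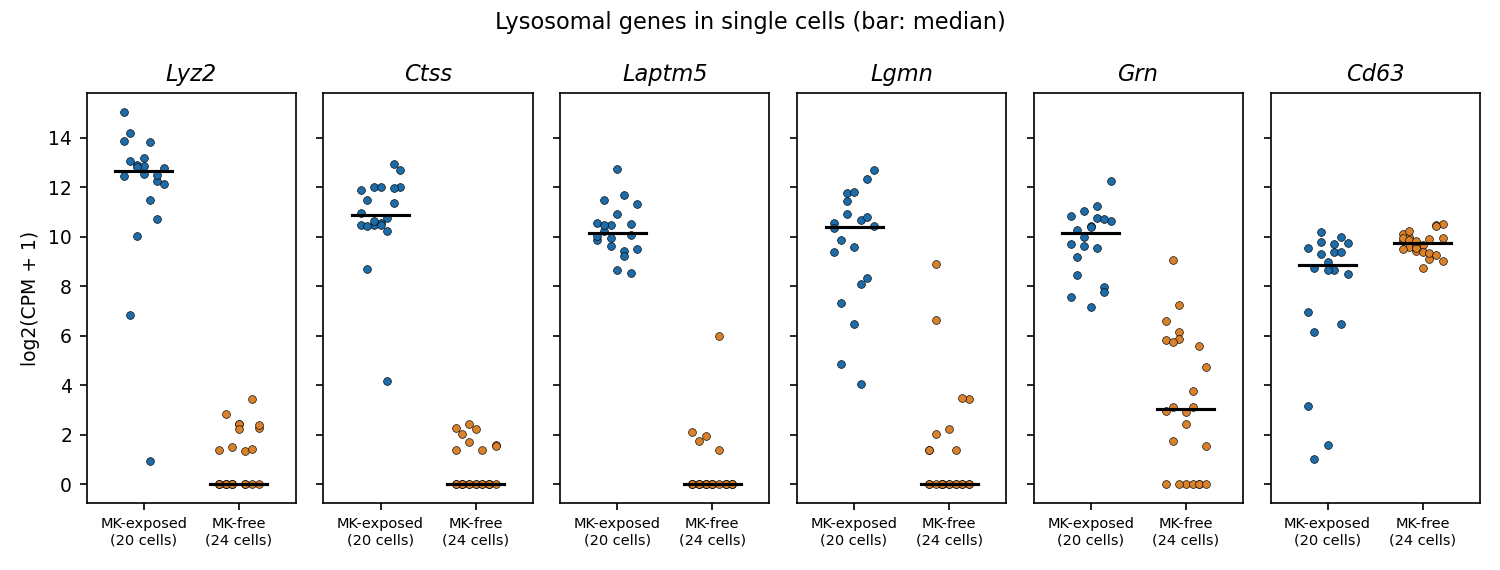
Level of each gene as log2(CPM + 1) (vertical axis) in 20 MK-exposed cells (left, blue) and 24 MK-free cells (right, orange). Each point is 1 cell and the bar is the median. The points of Ctss and Laptm5 do not overlap between the groups, while Cd63 was read in all 24 MK-free cells at 421 to 1450 CPM.

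Of the enzymes, Lyz2 had the highest level per length of transcript, given further on. In MK-exposed cells it had a lowest value of 0.906 CPM, a median of 6470 CPM and a highest of 33484 CPM, against 0, 0 and 9.75 CPM in MK-free cells. MK-exposed cells held 123772 reads and MK-free cells 25 reads, spread over 11 cells with at most 6 in a cell. The ratio of pooled levels was 3930 (2662 to 6074). Only MK-exposed cell 19 overlapped the other group, with 1 Lyz2 read of 1103554 library reads. No MK-free cell reached 10 CPM, and 0 of 24 cells allows a share of up to 14.2% (Clopper-Pearson), a limit that covers the counting of cells on this 1 plate and not the spread between cultures. For comparison, Sparc, the matrix gene with 75589 reads in MK-free cells, had 56 reads in MK-exposed cells, with at least 1 in all 20. A few reads per cell of a gene abundant in the other group were thus seen in both directions, and the share of cells with a single read says little here. Lyz1, the close relative of Lyz2, had 28 reads in MK-exposed cells and none in MK-free cells. The transcripts of Lyz2 and Lyz1 are 95.8% identical, and none of 1167 windows of 150 bases, the read length, was the same in both. Lyz1 followed Lyz2 over the MK-exposed cells at a Spearman correlation of 0.62. Whether reads were misplaced between the 2 genes was not tested.

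Ctss ranged from 17.2 to 7779 CPM in MK-exposed cells with a median of 1861 CPM, against 0 to 4.44 CPM and a median of 0 in MK-free cells. The groups did not overlap. There were 41697 reads in MK-exposed cells and 11 in MK-free cells, a ratio of 3009 (1682 to 6029). The lowest MK-exposed cell was again cell 19, with 19 reads. The other 19 cells spanned 417 to 7779 CPM.

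Lgmn was spread widely among cells. It ranged from 15.5 to 6613 CPM in MK-exposed cells with a median of 1345 CPM, against 0 to 476 CPM and a median of 0 in MK-free cells. 6 MK-exposed cells lay below the highest MK-free cell, so the groups overlapped. There were 28490 reads in MK-exposed cells and 287 in MK-free cells, a ratio of 78.8 (70.2 to 88.8). A single cell held 69.7% of the MK-free reads: cell 9, with 200 reads. Leaving out the top cell of each group moved the log2 ratio to 7.73, against 6.30 with all cells. Lgmn was thus scarce in most MK-free cells, with reads in 9 of 24, and at least 10 CPM in 3.

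Among the genes that are not enzymes, Laptm5 was the most even in MK-exposed cells on the log scale. It ranged from 371 to 6837 CPM there with a median of 1130 CPM, against 0 to 62.5 CPM and a median of 0 in MK-free cells. The highest value was 473 reads in cell 11, the shallowest library at 69181 reads, and the next highest was 3289 CPM. The groups did not overlap. MK-exposed cells held 22215 reads and MK-free cells 46, giving a ratio of 383 (287 to 524). MK-free cell 19 held 89.1% of those 46 reads. Without the top cell of each group by reads, which was cell 5 among MK-exposed cells, the log2 ratio was 11.54, against 8.58 with all cells. On the log2(CPM + 1) scale the SD among MK-exposed cells was 1.03 for Laptm5, against 1.37 for Grn, 1.84 for Ctss, 2.39 for Lgmn, 2.79 for Cd63 and 3.09 for Lyz2.

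Grn was present in part of the MK-free cells. It ranged from 143.5 to 4811 CPM in MK-exposed cells with a median of 1126 CPM, against 0 to 530 CPM and a median of 7.19 CPM in MK-free cells. 5 MK-exposed cells lay below the highest MK-free cell. The reads were 21513 in MK-exposed cells and 680 in MK-free cells, a ratio of 25.1 (23.3 to 27.1). Grn had reads in 17 of 24 MK-free cells (70.8%, with the same kind of interval at 48.9 to 87.4% over cells of 1 plate) and reached 10 CPM in 10. MK-free cell 2 alone gave 55.7% of the group's reads, and without the top cell of each group the log2 ratio was 5.53, against 4.65 with all cells. That cell also held the second highest Lgmn of its group, 99.4 CPM, and the highest sum of macrophage markers, 326 CPM. It had no read of Lyz2, Ctss or Laptm5, and its sum of osteoblast and fibroblast markers was 3085 CPM.

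Cd63 was the shared gene of the 6. It ranged from 1.00 to 1170 CPM in MK-exposed cells with a median of 463 CPM, against 421 to 1450 CPM and a median of 854 CPM in MK-free cells. 10 MK-exposed cells lay below the lowest MK-free cell, the other 10 lay within the MK-free range, and 17 of 20 lay below the MK-free median. MK-exposed cells held 8106 reads and MK-free cells 10655. The pooled ratio was 0.604 (0.587 to 0.622), less than a 2-fold difference, and it was −0.73 on the log2 scale. The mean of log2(CPM + 1) differed more, by −1.92 (MK-exposed minus MK-free). 3 MK-exposed cells had almost no Cd63: cell 1 had 7 reads and cells 9 and 18 had 1 each, in libraries of 877344, 1000214 and 508854 reads. The same 3 cells carried 5616, 18850 and 9284 CPM of Lyz2 and reads of all 15 listed macrophage markers. A pseudogene copy, Cd63-ps, is not among the listed genes, and 11.4% of the 150-base windows of Cd63 occur in it unchanged, so part of the reads could have been placed either way.

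Cd63 was also even among cells cultured without megakaryocytes. Its coefficient of variation over the 24 MK-free cells was 0.317, and 1.30% of 2624 genes read in 12 or more of those cells had a lower one, where the median was 1.08. The genes set beside the members here were not matched for level, whose part in the coefficients was not tested. In MK-exposed cells its coefficient was 0.739, and 14.6% of 1353 genes read in 15 or more of the 20 cells had a lower one. Grn stood at the other end in MK-free cells, with a coefficient of 2.32 that exceeded that of 97.1% of genes. In MK-exposed cells the coefficients of Lyz2, Ctss, Lgmn, Grn and Laptm5 were 0.960, 0.735, 1.05, 0.855 and 0.915, all below the all-gene median of 1.17. In these cells each gene's top cell held between 11.4% (Cd63) and 20.3% (Lgmn) of its reads.

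Per kilobase of the main annotated transcript, the median level in MK-exposed cells ran from Lyz2 (4916 CPM per kb) over Ctss (1373), Lgmn (676), Grn (481) and Laptm5 (435) to Cd63 (418). The last 3 differed by less than the spread between their cells. In MK-free cells the order was Cd63 (770 CPM per kb) and Grn (3.07), and the medians of the other 4 were 0. Every cell was also thinned to 270000 reads, which left out the 2 shallowest MK-exposed cells, 11 and 16. At that depth Lyz2 was read in 17 of 18 MK-exposed cells and 7 of 24 MK-free cells, Grn in 18 of 18 MK-exposed and 16 of 24 MK-free cells, and Cd63 in 16 of 18 MK-exposed and 24 of 24 MK-free cells.

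**Figure D2:**
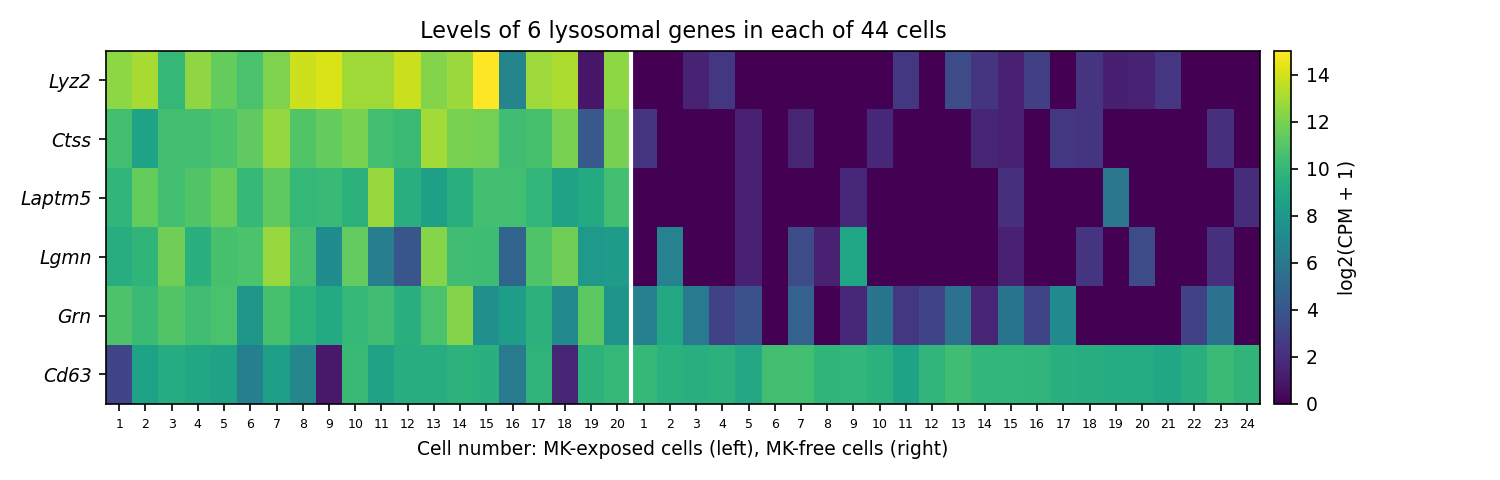
Level of the 6 genes (rows) as log2(CPM + 1), by colour, in each cell (columns, by cell number), MK-exposed cells left of the white line and MK-free cells right of it. MK-exposed cell 19 is dark for Lyz2 and bright for Grn, and cells 1, 9 and 18 are dark for Cd63. The right side is bright throughout only in the Cd63 row. Part of its cells also stand out for Grn, and a few for Lgmn or Laptm5.

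Single cells stood low for single genes. Cell 19 of the MK-exposed group had 0.906 CPM of Lyz2 and 17.2 CPM of Ctss, with 2.72 CPM of Ctsc, which encodes the dipeptidyl peptidase cathepsin C (group median 2119 CPM). It nevertheless held 2447 CPM of Grn, 838 CPM of Cd63, 594 CPM of Laptm5 and 3137 CPM of Cd53, a tetraspanin of leukocytes. 8 of the 15 listed macrophage markers were read in it, with a sum of 5531 CPM and 4.53 CPM of osteoblast and fibroblast markers. Cell 12 had the lowest Lgmn, 15.5 CPM, beside 14443 CPM of Lyz2. Cell 15 had the highest Lyz2, 33484 CPM, with 187 CPM of Grn, and S100a8 and S100a9 together reached 1181 CPM there, the highest of the group. Cell 16, with 71585 library reads, had 245233 CPM of the nuclear RNA Malat1 and was low in Lyz2 (112 CPM), Lgmn (27.9 CPM) and Cd63 (69.8 CPM). Its Ctss and Laptm5 stood at 1397 and 1411 CPM.

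Across the 20 MK-exposed cells the 6 genes did not move as a block. The 15 pairs had a median Spearman correlation of −0.027, with 6 pairs above 0 and a range of −0.48 to 0.65. Over all 914628 pairs of the 1353 genes the median was 0.059, and 95% of pairs lay between −0.42 and 0.52. These correlations are descriptions over cells that share a plate, and carry no p-value. The highest pair was Ctss with Lgmn, at 0.65, and the lowest was Lyz2 with Grn, at −0.48. Cells 7 and 13 held the highest values of both Ctss (6550 and 7779 CPM) and Lgmn (6613 and 5138 CPM). Cells 11, 12 and 16, lowest in Lgmn, still held 1402, 1190 and 1397 CPM of Ctss. The Ctss and Lgmn correlation was 0.36 by Pearson's coefficient of log2 levels. The Lyz2 and Grn correlation by rank was −0.41 without cell 19. By Pearson's coefficient it was −0.23, and −0.038 without cell 19. Lyz2 with Ctss came to 0.18 by rank and 0.75 by Pearson's coefficient, which fell to 0.15 without cell 19, low in both genes.

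**Figure D3:**
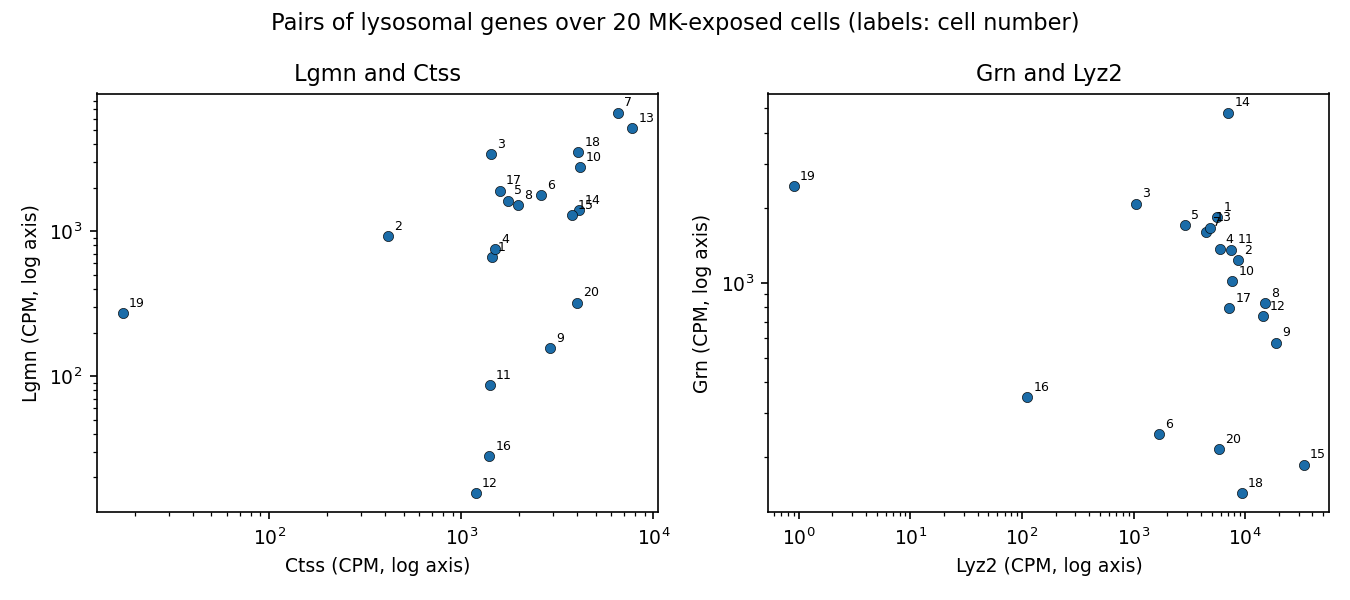
Ctss against Lgmn (left) and Lyz2 against Grn (right) in the 20 MK-exposed cells, in CPM on log axes, each point 1 cell labelled with its number. Cells 7 and 13 are highest in both genes on the left, where cells 11, 12 and 16 are low in Lgmn only, and cell 19 stands apart at the low end of Ctss and Lyz2.

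Technical measures and marker sums moved with some of the genes. Ctss followed the summed macrophage markers (Spearman 0.77), Lgmn did so at 0.51 and Lyz2 at 0.40, while Grn (−0.065) and Laptm5 (−0.078) did not. Grn followed the number of library reads at 0.57, and Lyz2 stood at −0.23. Leaving out cells 11 and 16 moved the Lyz2 and Grn correlation to −0.61. Thinning to 270000 reads leaves out the same 2 cells and also gave −0.61, so these are not separate checks. Cd63 ran against the share of reads from the actin gene Actb (−0.42) and against the stromal marker sum (−0.40), whereas Laptm5 stood at 0.46 with that sum. The stromal sum rests on few reads in MK-exposed cells, with a median of 7.03 CPM. Its highest values, 154 CPM in cell 16 and 116 CPM in cell 11, came from the 2 shallowest libraries. Cst3, which encodes cystatin C, an inhibitor of cysteine cathepsins, stood at −0.21 with Ctss and −0.21 with Lgmn.

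The 3 genes whose levels were most like each member over the 20 cells were named by rank among 1352 genes, so high values are in part a result of choosing. For Ctss these were Maf (0.78), a transcription factor of macrophages, Fcer1g (0.67), the common chain of Fc receptors, and C5ar1 (0.67), the receptor of complement C5a. Maf also reached 0.72 with Lgmn. For Lgmn itself they were Rap2b (0.76), a small GTPase, Gtf2a1 (0.75), a general transcription factor, and Gpnmb (0.74), a glycoprotein of lysosomes and melanosomes. For Lyz2 they were Snrpd1 (0.76), a spliceosome protein, Ndufs6 (0.70), a subunit of respiratory complex I, and Gcnt1 (0.70), a glycosyltransferase. For Grn they were Ccdc6 (0.74), Uqcrc1 (0.72), a subunit of respiratory complex III, and Ptpn6 (0.71), the phosphatase SHP-1. For Laptm5 they were Ndufc2 (0.65), Calr (0.56), the chaperone calreticulin, and Gnai2 (0.55), a G-protein subunit. For Cd63 they were Lmna (0.71), the nuclear lamin A/C, Ndufb3 (0.65) and Mcfd2 (0.64), a cargo adaptor of the secretory path. No gene came up for more than 1 member. Some of these values depended on the measure: by Pearson's coefficient of log2 levels Ctss and Fcer1g had 0.20, Lyz2 and Snrpd1 0.49, and Lyz2 and Ndufs6 0.42. Laptm5 and Ndufc2 had 0.40 in thinned cells, and Grn and Uqcrc1 0.46 with median-of-ratios scaling.

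Only Grn and Cd63 were read in at least 12 of the 24 MK-free cells. Their correlation there was 0.22, against 0.19 in MK-exposed cells. Grn was nearest to Vamp8 (0.69), a fusion protein of late endosomes, Atp6v1e1 (0.68), a proton pump subunit, and Tpp1 (0.68), a lysosomal peptidase. Grn had a median correlation of 0.35 with 57 other lysosomal genes in these cells, 54 of them above 0, against a median of 0.098 with all genes, of which 65.7% were above 0. For Cd63 in the same cells the median was 0.092 with 35 of 57 above 0, against a median of −0.014 with all genes, of which 47.8% were above 0. Grn also followed the number of genes read per cell (0.64), as did Vamp8 (0.77), and less so Tpp1 (0.39) and Atp6v1e1 (0.35). The part of that measure was not tested. Cd63 was nearest to Cd302 (0.58), Pmp22 (0.57) and Smpd1 (0.56), the last of them sparsely read.

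In MK-exposed cells the correlation with 53 other lysosomal genes had a median of 0.16 for Grn, 0.18 for Cd63, 0.17 for Lgmn and 0.13 for Ctss. The same medians over all genes were 0.087, 0.089, 0.017 and −0.038. Lyz2 stood at 0.0098, against 0.090 over all genes, and Laptm5 at −0.12, against −0.0030 over all genes. The highest partner of Lyz2 among lysosomal genes was Ctsc (0.68), of Lgmn Scpep1 (0.67), a serine carboxypeptidase, of Ctss Lamp1 (0.51) and of Grn Ctsl (0.52), which encodes cathepsin L.

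The members were set beside the other genes of the lysosome. Of the genes on 7 lists by role, 84 were in the table and 82 were read in enough cells to be counted. Of these, 55 were at least 2-fold higher in MK-exposed cells, 5 were lower and 22 were neither. Over all genes 21.5% were higher and 28.2% lower, and these shares also stand beside the counts per list below. The median log2 ratio of pooled levels of the 82 was 1.66, against −0.14 over all genes. For none of the 82 did the cells of the groups stand wholly apart. Over all genes this was rare too, at 0.489% with every MK-exposed cell above and 0.214% with every one below. Ordered by this ratio with the members, Lyz2, Ctss and Laptm5 took the first 3 of 88 places, Lgmn the fifth, Grn the tenth and Cd63 place 80. Slc11a1 stood between Laptm5 and Lgmn, and Slc15a3 came next after Lgmn. The members were chosen with earlier results of these data known, so their places are in part a result of choosing.

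10 of 11 proteases were at least 2-fold higher and none lower. Levels given here are pooled over the cells of a group. Ctsc had 2657 CPM in MK-exposed cells and 48.2 CPM in MK-free cells, a ratio of 55.2 (50.9 to 59.9). Ctsb, cathepsin B, had 8923 CPM in MK-exposed cells and 555 CPM in MK-free cells, and Ctsh, cathepsin H, had 350 CPM in MK-exposed cells and 24.6 CPM in MK-free cells. Ctsl was read in every MK-free cell, with 3041 CPM in MK-exposed cells against 666 CPM in MK-free cells. Scpep1 was neither, with 331 CPM in MK-exposed cells and 233 CPM in MK-free cells.

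11 of 13 glycosidases and sulfatases were at least 2-fold higher and 1 was lower. Gla, alpha-galactosidase, had 97.1 CPM in MK-exposed cells and 27.1 CPM in MK-free cells. A single cell held 86.6% of the MK-free Gla reads, and without the top cell of each group the log2 ratio of Gla was 4.28, against 1.84 with all cells. Gaa, the acid glucosidase that digests glycogen, ran the other way, with 5.44 CPM in MK-exposed cells against 73.4 CPM in MK-free cells (ratio 0.0741). A single cell held 63.5% of the MK-exposed Gaa reads, and without the top cell of each group its log2 ratio was −4.72, against −3.75 with all cells. Of 11 enzymes of lipids and nucleic acids 9 were at least 2-fold higher and Smpd1, the acid sphingomyelinase, was lower. Gm2a, the activator protein of ganglioside breakdown, had 1656 CPM in MK-exposed cells and 47.3 CPM in MK-free cells. Lipa, the acid lipase, had 577 CPM in MK-exposed cells and 45.5 CPM in MK-free cells, and Pld3, an exonuclease, had 251 CPM in MK-exposed cells and 33.9 CPM in MK-free cells. Psap, whose product prosaposin binds progranulin, had 95.2 CPM in MK-exposed cells and 16.6 CPM in MK-free cells, with 56.3% of the MK-exposed reads in 1 cell.

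10 of 19 membrane proteins and transporters were at least 2-fold higher, 1 was lower and 8 were neither. Cd68, a membrane protein abundant in macrophages, had 942 CPM in MK-exposed cells against 17.3 CPM in MK-free cells (ratio 54.4). Slc11a1, the metal transporter NRAMP1 of phagocytes, had 273 CPM in MK-exposed cells and 1.69 CPM in MK-free cells, at a log2 ratio of 7.33 that was 8.14 without the top cell of each group and 7.93 in thinned cells. Cln3, a membrane protein whose loss causes a lysosomal storage disease, had 133.1 CPM in MK-exposed cells and 9.02 CPM in MK-free cells. Lamp2, a main protein of the lysosomal membrane, was neither, at 849 CPM in MK-exposed cells and 508 CPM in MK-free cells. 10 of 14 proton pump subunits were at least 2-fold higher and 4 were neither. Tcirg1, the a3 subunit, stood out with 242 CPM in MK-exposed cells against 11.7 CPM in MK-free cells, a log2 ratio of 4.38 that was 5.06 on the deposited signal. The subunit Atp6v0d1 had 173 CPM in MK-exposed cells and 44.6 CPM in MK-free cells, and Atp6v1b2 had 507 CPM in MK-exposed cells and 152 CPM in MK-free cells.

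3 of 10 genes of sorting and regulation were at least 2-fold higher, 1 was lower and 6 were neither, near the 21.5% of all genes that were higher. Lamtor2 and Lamtor4, subunits of the Ragulator complex, had 87.7 and 74.6 CPM in MK-exposed cells, against 25.5 and 9.42 CPM in MK-free cells. Igf2r, a mannose 6-phosphate receptor that carries enzymes to the lysosome, was read in 12 of 20 MK-exposed cells at 104 CPM, against all 24 MK-free cells at 178 CPM. It was neither by the rule at a log2 ratio of −0.77, and 1 cell held 41.0% of its MK-exposed reads. It passed 2-fold lower with the listed reads as the total (−1.03) and without the top cell of each group (−1.34). M6pr, another mannose 6-phosphate receptor, was neither, with 382 CPM in MK-exposed cells and 247 CPM in MK-free cells. A list drawn up for inhibitors of cysteine proteases held 4 protease inhibitors. The cystatins Cst3 and Cstb were at least 2-fold higher. Of the other genes, which are not cystatins, Lxn was lower and Serpinb6a was neither, so these calls do not describe inhibitors of cysteine proteases. Serpinb6a, a serpin, had the largest difference of mean log levels of the 4 and was neither, with 198 CPM in MK-exposed cells and 373 CPM in MK-free cells (log2 ratio −0.91). It passed 2-fold lower with the listed reads as the total (−1.17), on the deposited signal (−1.33), in thinned cells (−1.24) and without the top cell of each group (−1.14). Lxn, latexin, was lower, with 9.08 CPM in MK-exposed cells against 28.8 CPM in MK-free cells. Cst3 had 1044 CPM in MK-exposed cells and 180 CPM in MK-free cells, and Cstb, cystatin B, had 817 CPM in MK-exposed cells and 341 CPM in MK-free cells.

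Cd63 was set beside other tetraspanins, a family of membrane proteins that cross the membrane 4 times. Of 6 read in enough cells, Cd53 was higher, 3 were lower and 2 were neither. Over all genes 21.5% were higher and 28.2% lower. The median log2 ratio of the 6 was −0.84, against −0.14 over all genes. Cd53 had 48380 reads in MK-exposed cells and 5 in MK-free cells, and its cells did not overlap between the groups. Cd9 was neither, with 560 CPM in MK-exposed cells and 454 CPM in MK-free cells. Tspan3 and Tspan4 had 39.6 and 72.1 CPM in MK-exposed cells, against 214 and 154 CPM in MK-free cells, and 1 cell held 89.5% of the MK-exposed reads of Tspan3, whose log2 ratio was −5.38 without the top cell of each group, against −2.43 with all cells.

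**Figure D4:**
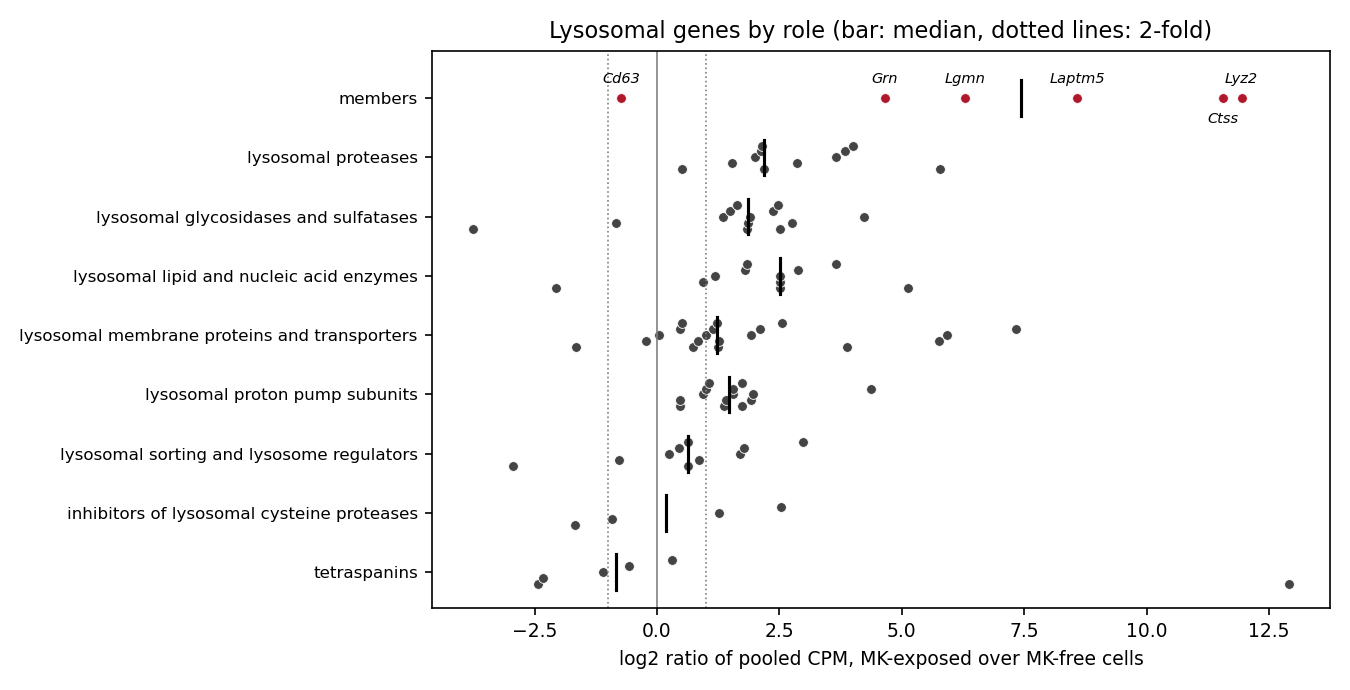
Log2 ratio of pooled CPM, MK-exposed over MK-free cells (horizontal axis), of each listed gene of the lysosome and of the tetraspanins, by role (rows). Each point is 1 gene, the bar is the row's median and dotted lines mark 2-fold. Lyz2, Ctss and Laptm5 lie to the right of all other lysosomal genes, Cd63 lies left of 0, and the only point farther right is the tetraspanin Cd53. The members were chosen with earlier results of these data known.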

How the data were processed

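Per the labels, cells were captured on a Fluidigm C1, cDNA was made with SMART-Seq, libraries with Nextera XT, and paired-end sequencing of 150 b was done on a NextSeq. The build mm10 and Seurat are named in the submitters' processing notes. For the aligner, counter, annotation and the choice of the 3613 genes, nothing is stated in the labels or notes used. The deposited values are a signal of the form reads × 1e+09 / (library reads × a whole number per gene), as worked out from the values. Solving for those whole numbers turned all 99807 values above 0 into whole reads within 0.0001, and CPM is those reads × 1e+06 / library reads. No column was left out. Ratios are pooled CPM with exact binomial intervals. Because each group is 1 sample and no label names separate cultures, no count model was fitted. Co-variation is Spearman's coefficient of CPM. Genes named are all 6 members, the 3 nearest genes of each, up to 3 genes per list with the largest difference in mean log2(CPM + 1), and relatives of the members, of which 1 gene is not reported here. The members, lists and markers were chosen with earlier results of these data known, and genes outside the naming rule (among them Lamp2, Lxn, Smpd1 and Slc15a3) were chosen after their values were seen. Spread was set beside all genes, in place of the genes of like level first planned. Scripts were tested on simulated data (Python 3.11.15, numpy 2.4.6, pandas 2.3.3, scipy 1.17.1). Alternatives changed the total, scaling, unit, depth, cells, pseudocount, filter and correlation measure.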

Additional observations from a re-analysis of the deposited data

How the results depend on the processing

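The counts of 5 genes at least 2-fold higher and none lower held under every alternative tried, and 2 genes without overlap became 3 only when MK-exposed cell 19 was left out, a choice made after seeing the data. No called value changed direction, and the median of the 15 pairs, near 0, changed sign. In all, 94 alternative values of the main results stayed within set limits while 30 did not. The limits were 1.5 times for counts, 0.1 for correlations, the binomial interval for ratios and the standard error over genes for list medians. Of the other values followed, 223 stayed within these limits and 120 did not. The cause of the following shifts was not tested, except that fewer cells enter where cells are left out. With the listed genes' reads as the total, the log2 ratio moved to 6.04 for Lgmn, 4.39 for Grn and −0.99 for Cd63, the median of the other lysosomal genes to 1.40 with 8 lower instead of 5, and the Ctss and Lgmn correlation to 0.54. That total shifted the median log2 ratio of all genes by −0.26, to −0.40, so that these ratios moved little relative to all genes. The correlation, taken within MK-exposed cells, is not covered by that shift. Median-of-ratios scaling gave −0.64 for Cd63 and 0.49 for Ctss and Lgmn. Means of the deposited signal gave log2 ratios of 6.08 for Lgmn, 9.05 for Laptm5 and −0.84 for Cd63, and a median difference of the other lysosomal genes of 1.59 instead of 1.25. Thinned cells gave 9.28 for Laptm5, a median difference of 1.496, and −0.61 for Lyz2 and Grn. Without cells 11 and 16, which the thinned cells also lack, that difference was 1.49 and Lyz2 and Grn came to −0.61. Without the top cell of each gene the log2 ratio was 7.73 for Lgmn, 5.53 for Grn, 11.54 for Laptm5 and −0.78 for Cd63, with 8 other lysosomal genes lower. A pseudocount of 10 gave a median difference of 0.76. By Pearson's coefficient of log2 levels, Ctss and Lgmn had 0.36, Lyz2 and Grn −0.23 and the 15 pairs a median of 0.11. Without cell 19 Cd63 had −0.80, and with Pearson's coefficient Ctss and Lgmn had 0.45, Lyz2 and Grn −0.038 and the pairs 0.12. No paired analysis was possible because the comparison comes from no test, and the numbers that the cells share between groups only name cells. The MK-free pooled levels of Lyz2, Ctss and Laptm5 rest on 25, 11 and 46 reads.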
